A study of Homo sapiens with 12 samples.

Results

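The OSK line was compared with wild-type cells in 6 of the 12 RNA-seq libraries of the study, 3 labelled OSK and 3 labelled WT. All were made from poly(A) RNA of ARPE-19, an established human cell line of the retinal pigment epithelium (RPE). The OSK line is a stable line that carries open reading frames (ORFs), read here as the reprogramming factors POU5F1 (OCT4), SOX2 and KLF4, and it was collected 4 days into their expression. The labels name no ORF for the WT cells, and they do not give the species, vector or promoter of the ORFs. The GFP line, with 3 libraries of its own, carries a fluorescent protein as its ORF and served here to ask which differences from WT a line with another ORF has too. The 3 libraries of the GSTA4 line entered no contrast. They took part in the filter on low counts, the scaling and the shared estimate of the spread between replicates. The labels are silent on whether the replicates are separate cultures or repeats of 1 culture, so p-values measure the spread between these libraries, which may be technical. An effect of the factors and any other difference between the lines cannot be told apart. Members were all lines of the count table with a gene name, 40591 in number, of which 15179 passed the filter on low counts and were tested.

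POU5F1 and SOX2 are transcription factors that bind DNA side by side at regulatory elements of pluripotent cells, and KLF4 is a zinc-finger factor that acts with them there and also controls differentiation of squamous epithelia. Together they can move a differentiated cell back toward a younger or more plastic state, and when expression is short they are used in the retina to ask whether cells can be made more resilient without losing their identity. The RPE is a pigmented, normally non-dividing layer that supports photoreceptors, recycles visual pigment and withstands a high oxidative load.

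Library totals ran from 14623863 to 16455864 reads in OSK, from 13662128 to 17045454 in WT and from 12630675 to 15024601 in GFP. Levels are given as CPM, reads scaled to a common library total. The floor below which a gene with 0 reads could still lie, taken as 3 reads, was 0.177 to 0.228 CPM over the 12 libraries, for counting error only. WT replicate 1 stood apart from the other WT libraries: the chi-square per degree of freedom over genes was 15.0 and 17.5 against WT replicates 2 and 3, while those 2 differed by 2.54. GFP replicate 1 had reads on 27349 named lines against 19488 to 22073 in the other 11 libraries. Values that turned on either library are given beside the results concerned.

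The 3 factors were far higher in every OSK library than in any WT library. POU5F1 (chr6:31164337-31180731, minus strand, GENCODE v29 on GRCh38) stood at 810, 764 and 763 CPM in OSK and at 0.311, 0.0734 and 0.059 CPM in WT. SOX2 (chr3:181711924-181714436, plus strand) stood at 632.5, 623 and 629 CPM in OSK and had no read in the 3 WT libraries, so it was at least 3230-fold higher against the floor. KLF4 (chr9:107484852-107490482, minus strand) stood at 949, 923 and 912 CPM in OSK and at 1.49, 1.10 and 0.885 CPM in WT. The groups did not overlap for any of the 3, and the OSK libraries differed little among themselves. The log2 fold change of KLF4 was 9.63 (SE 0.173, edgeR adjusted p 7.49e-20). That of POU5F1 was 12.26 (SE 0.167, adjusted p 1.16e-21), and 13.36 without WT replicate 1, which held 5 of the 7 WT reads. GFP libraries held 0.136 to 0.380 CPM of POU5F1, 0 to 0.380 of SOX2 and 0.272 to 0.912 of KLF4. SOX2 was also called in GFP against WT (adjusted p 0.0468), on 5, 0 and 1 reads, so by the split below it counts as shared. That call was lost without any 1 of the WT or OSK libraries or without GFP replicate 1 (adjusted p 0.0598 to 0.345). Reads of an ORF and of its native gene are counted together. The pseudogene POU5F1P4, whose sequence resembles POU5F1, had 84 to 89 reads in OSK and 0, 0 and 1 in WT, and reads shared between the copies cannot be told apart.

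**Figure D1:**
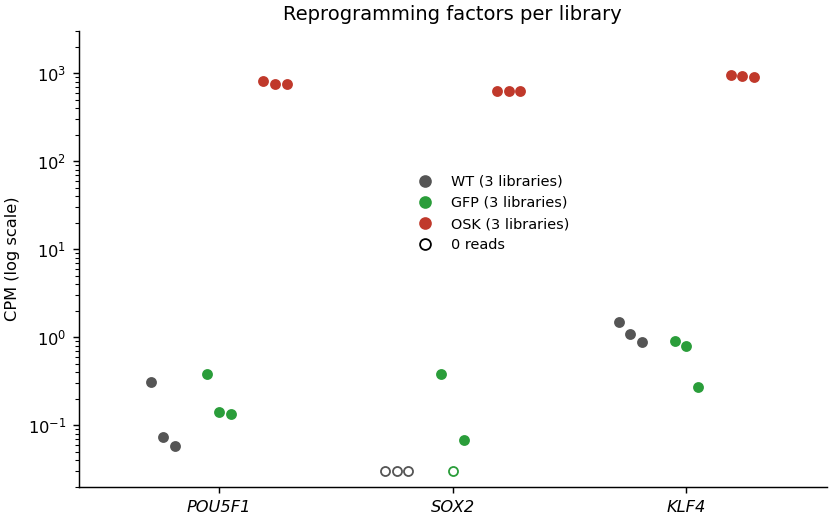
CPM of the reprogramming factors POU5F1, SOX2 and KLF4 on a log axis, 1 point per library for WT, GFP and OSK. Open points mark libraries with 0 reads and are drawn at the foot of the plot. All 9 OSK points lie between 623 and 949 CPM, and no WT or GFP point exceeds 1.49 CPM.

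OSK and WT cells differed in close to every second gene tested. At an adjusted p under 0.05 (edgeR quasi-likelihood test, Benjamini-Hochberg over all 15179 genes), 6890 genes were called, which is 45.4% of those tested: 3449 were higher (22.7%) and 3441 lower (22.7%) in OSK. A log2 change of at least 1 in size was found in 992 higher (6.54%) and 861 lower genes (5.67%). In 53.5% of genes no OSK library fell within the range of the WT libraries or the reverse. The GFP line also differed from WT, in 3369 genes (22.2%), of which 1666 were higher (11%) and 1703 lower (11.2%), with a change of at least 1 in 387 (2.55%) and 115 (0.758%). OSK and GFP differed in 6962 genes (45.9%), 3508 higher (23.1%) and 3454 lower (22.8%) in OSK, with a change of at least 1 in 769 (5.07%) and 998 (6.57%). Groups did not overlap in 34.6% of genes for GFP and WT and in 54.7% for OSK and GFP. The median log2 change over all genes was -0.01 in OSK against WT, and when libraries were scaled by their totals only it was -0.08. That scaling gave 41.14% of the OSK against WT calls as higher, against 50.06%, and 39.78% of the OSK against GFP calls, against 50.39%.

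Each OSK against WT call was then sorted by what the GFP line showed. A call was counted as specific to OSK where OSK also differed from GFP in the same direction and GFP was not called that way against WT. It was counted as shared where GFP was called in the same direction, and as undecided otherwise. The contrasts share libraries (WT in both comparisons with WT, GFP in both comparisons with GFP), and a gene not called in GFP against WT is not shown to be unchanged there. The GSTA4 line did not enter the split, so specific to OSK means apart from WT and GFP only. Of the 6890 calls, 4179 (60.65%) were specific to OSK, 2128 higher (14% of the genes tested) and 2051 lower (13.5%). In 494 of these the GFP line was called in the opposite direction. Shared calls numbered 1666 (24.18%), 823 higher (5.42%) and 843 lower (5.55%), and 1045 calls (15.17%) were undecided, 498 higher (3.28%) and 547 lower (3.6%). Among the shared calls, 701 were larger in OSK than in GFP, with a median size of 1.23 on the log2 scale, 900 were not called apart between the lines, and 65 were smaller in OSK. With a change of at least 1 in both OSK against WT and OSK against GFP, 470 specific genes were higher and 467 lower. Leaving out 1 library at a time moved the specific calls between 3638 (without OSK replicate 3) and 4509 (without WT replicate 1), and 3884 of the latter were among the 4179. Shared falls dropped from 843 to 560 without GFP replicate 2.

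**Figure D2:**
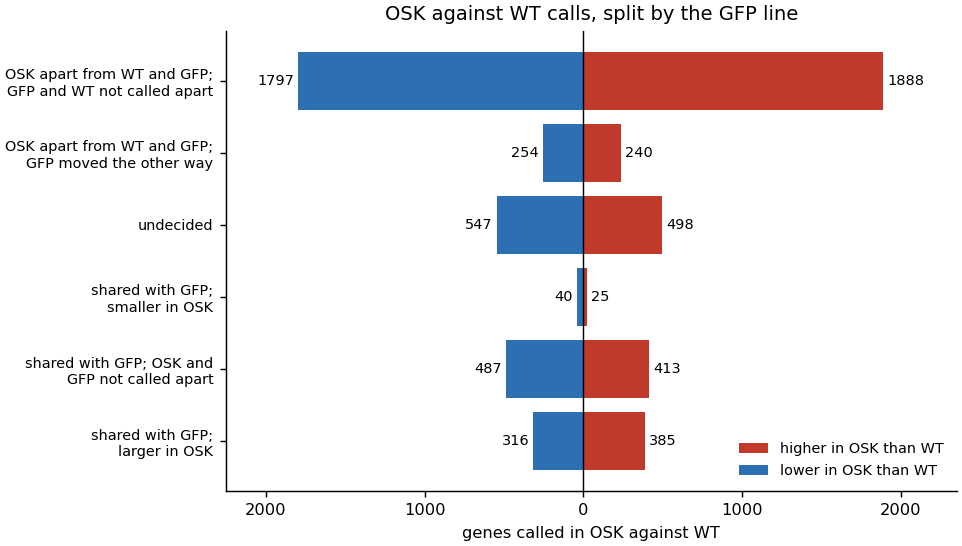
Number of genes called in OSK against WT, higher (right, red) or lower (left, blue), by what the GFP line showed. The largest bars are genes in which OSK differed from both WT and GFP while GFP and WT were not called apart, 1888 higher and 1797 lower.

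The antigen presentation genes of MHC class I, which display peptides from inside the cell at its surface, rose almost as a group. Of 18 list members, 17 were higher in OSK than in WT and none lower, with a median log2 change of 1.71 against -0.01 over all genes tested. The same 18 genes had a median of 0.10 in GFP against WT (6 higher, 1 lower) and 1.42 in OSK against GFP (17 higher). By the split, 10 were specific to OSK, 6 were shared and larger in OSK, and 1 was undecided. The summed level of the list was 8015 to 8889 CPM in OSK, 3910 to 4115 in WT and 3768 to 4402 in GFP.

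HLA-B, a classical class I heavy chain, stood at 555, 621 and 638 CPM in OSK and at 119, 109 and 104 CPM in WT. The GFP libraries lay at 102 to 125 CPM, within reach of WT and far below OSK. Its log2 fold change was 2.45 against WT (SE 0.0803, adjusted p 1.7e-15) and 2.40 against GFP (adjusted p 2.21e-15). HLA-C changed by 2.12 against WT and was also specific to OSK. Heavy-chain genes are close relatives and the annotated spans of HLA-B and HLA-C overlap, so how reads were split among them is uncertain. B2M, the light chain common to all class I molecules, rose from 217, 185 and 200 CPM in WT to 581.5, 668 and 727 CPM in OSK (log2 1.72, SE 0.0816, adjusted p 4.99e-13). It was also higher in GFP than in WT, by 0.38. TAP1, a subunit of the peptide transporter, rose from 14.2 to 16.5 CPM in WT to 54.6 to 58.3 CPM in OSK (log2 1.86). NLRC5, the coactivator of class I transcription, rose from 11.9 to 16.6 CPM to 68.2 to 70.4 CPM (log2 2.30, adjusted p 8.28e-14), and in GFP by 0.43. The native POU5F1 gene and the HLA genes lie in the same region of chromosome 6, B2M on chromosome 15 and NLRC5 on chromosome 16. Whether position had a part was not tested.

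The promoters of B2M and TAP1 are printed because they carry the interferon-stimulated response element (ISRE), searched on both strands as GAAA, any 2 bases and GAAA. Sequences are the 200 bases before the RefSeq start (GRCh38.p14), written 5′ to 3′ on the gene's strand, with ISRE matches in capitals. B2M lies at chr15:44711317-44711516 (plus strand) and TAP1 at chr6:32853705-32853904 (minus strand). Each holds 2 overlapping matches.
B2M: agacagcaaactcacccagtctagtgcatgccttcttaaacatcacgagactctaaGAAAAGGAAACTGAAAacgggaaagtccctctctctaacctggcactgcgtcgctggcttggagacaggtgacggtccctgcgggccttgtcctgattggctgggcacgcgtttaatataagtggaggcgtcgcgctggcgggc
TAP1: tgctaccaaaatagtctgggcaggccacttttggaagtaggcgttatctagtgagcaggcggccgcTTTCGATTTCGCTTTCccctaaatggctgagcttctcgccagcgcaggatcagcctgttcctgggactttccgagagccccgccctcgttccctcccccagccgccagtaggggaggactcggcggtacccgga
Over windows from 250 bases before to 50 after the start, 7 of 14 class I genes with a window held the motif (50%), and 16 of 24 interferon response genes (66.7%). It was found in 2.73% of the 11273 tested genes with a window and in 3.65% of all 27305 windows in the table. A match describes the letters only.

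Interferon response genes moved less than the class I genes. Of 30 tested, 20 were higher and 1 lower in OSK than in WT (median 0.71; 0.28 in GFP against WT, with 9 higher), and 8 of the rises were specific to OSK. TRIM22, an antiviral ubiquitin ligase, stood at 161, 191 and 185 CPM in OSK against 72.7, 76.7 and 89.8 in WT and 77.3 to 89.2 in GFP, a log2 change of 1.16 (SE 0.0806, adjusted p 1.89e-10). OSK lay above both other groups without overlap, and the membrane protein gene IFITM3, also specific to OSK, rose by 0.66. MX1, an antiviral GTPase, rose by 2.44 from 0.514 to 0.747 CPM in WT, and by 1.62 in GFP. ISG15 was at 2.53 to 3.91 CPM in OSK and 1.89 to 2.50 CPM in WT and was not called (adjusted p 0.202). IFIT1 passed (log2 0.67, adjusted p 0.0179), but not without OSK replicate 2 (0.60) or WT replicate 2 (0.41). IRF7, which drives interferon production, fell by 0.77.

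Complement genes included both activators and shields, and 10 of 16 rose while 1 fell (median 0.62). CD55, which breaks down complement convertases on the cell surface, stood at 1118, 1015 and 1186 CPM in OSK, at 142, 152 and 154 CPM in WT and at 98.7 to 111 CPM in GFP. Its log2 change was 2.89 against WT (SE 0.0736, adjusted p 2.42e-17), while GFP was below WT by 0.53. CD59, which blocks the membrane attack complex, rose by 1.55, specific to OSK. C1S and C3, parts of the activating cascade, rose by 1.81 and 2.24 and were also higher in GFP than in WT, by 0.66 and 0.78. SERPING1, the inhibitor of C1, fell by 0.61.

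Endoplasmic reticulum chaperones and folding enzymes, the targets of the unfolded protein response, rose in OSK with hardly any change in the GFP line. Of 28 tested, 20 were higher and none lower (median 0.36), and 19 of the 20 were specific to OSK. In GFP against WT 1 of the 28 was higher and none lower (median -0.05). HSPA5 (BiP), the main chaperone of the compartment, stood at 863, 913 and 944 CPM in OSK, 553.5, 598 and 614 CPM in WT and 521 to 620 CPM in GFP. The groups OSK and WT did not overlap, and the log2 change was 0.62 (SE 0.0686, adjusted p 2.05e-07). HSP90B1, the HSP90 of the same compartment, rose by 0.67, the disulphide isomerases PDIA4 and PDIA6 by 0.88 and 0.82, and XBP1, a transcription factor of the response, by 0.80. SEC24D, a coat protein of export vesicles, showed 1.35. DNAJB9 was at 30.6 to 41.3 CPM in OSK and 30.98 to 37.1 CPM in WT and was not called (adjusted p 0.383). In contrast, targets of ATF4 and amino acid starvation were split, with 13 of 33 higher and 7 lower (median -0.03). ATF4 was lower in OSK by 0.40 and in GFP by 0.46, and DDIT3, ASNS and TRIB3 were not called. The serine synthesis enzymes PHGDH and PSAT1 rose by 1.90 and 1.74, both specific to OSK.

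The promoters of HSPA5 and CRELD2 are printed for their endoplasmic reticulum stress element (ERSE), searched on both strands as CCAAT, any 9 bases and CCACG. They were chosen after their values were seen. CRELD2, an endoplasmic reticulum resident, rose from 19.2 CPM ± 3.43 to 34.97 ± 1.82 (SD, n = 3 each, log2 0.87, adjusted p 7.01e-06). Capitals mark the element, 48 to 66 bases before the start in HSPA5 (chr9:125241344-125241543, minus strand) and 62 to 80 bases before it, on the opposite strand, in CRELD2 (chr22:49918434-49918633, plus strand). Neither RefSeq start coincides with a transcript start of GENCODE v29.
HSPA5: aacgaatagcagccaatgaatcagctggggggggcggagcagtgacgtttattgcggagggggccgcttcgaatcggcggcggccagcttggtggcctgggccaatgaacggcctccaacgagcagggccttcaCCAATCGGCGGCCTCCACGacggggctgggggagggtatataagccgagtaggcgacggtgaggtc
CRELD2: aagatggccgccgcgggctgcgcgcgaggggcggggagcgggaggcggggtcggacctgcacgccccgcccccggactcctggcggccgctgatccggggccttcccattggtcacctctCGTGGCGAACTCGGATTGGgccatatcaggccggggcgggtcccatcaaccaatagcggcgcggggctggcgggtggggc
The element occurred in 7 of 25 listed response genes with a window (28%) and in 14 of 11273 tested genes (0.124%). Of those 14 genes, 9 were higher and specific to OSK, among them CALR (0.57), HSP90B1, XBP1 and TMEM120A (0.88), 1 was lower and undecided, and 4 were not called. Over all 11273 tested genes with a window, 1729 were higher and specific to OSK. The 14 include the 7 listed response genes, so their count partly repeats the result of that list.

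Cell division genes were the largest group of rises, and most of these calls were shared with the GFP line but larger in OSK. All 54 tested genes of mitosis and G2/M were higher in OSK than in WT, with a median log2 change of 2.95. In GFP against WT 48 of them were higher and none lower (median 1.83), and in OSK against GFP 49 were higher (median 1.14). By the split, 43 were shared and larger in OSK, 5 were shared and not called apart, and 6 were specific to OSK. The summed level was 1649 to 1962 CPM in OSK, 429.5 to 449 in WT and 859 to 907 in GFP, so the 3 groups did not overlap. In bulk RNA, more cells in division and more of these transcripts per cell cannot be told apart.

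MKI67, the gene of the proliferation antigen Ki-67, stood at 140.5, 159 and 162 CPM in OSK, at 7.53, 10.1 and 13.7 CPM in WT and at 56.6 to 59.2 CPM in GFP. The log2 change was 3.88 against WT (SE 0.129, adjusted p 2.17e-15) and 1.41 against GFP (adjusted p 1.14e-09). TOP2A, the topoisomerase of dividing cells, rose by 3.56, CDK1, the kinase that drives entry into mitosis, by 3.07, its partner CCNB1 by 2.10, and TPX2, a spindle factor, by 3.02. HJURP, which loads the centromeric histone, and SKA3, of the spindle attachment complex, were among the largest shared rises at 4.15 and 4.09. GFP was above WT by 2.68 and 3.40 for this pair. SKA3 was called apart between OSK and GFP by a small margin (0.70, adjusted p 0.0445), which was lost without any 1 of the OSK libraries or without GFP replicate 2 or 3 (adjusted p 0.0565 to 0.181).

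The promoters of CCNB2 and PLK1 are shown for the pairing of a CHR (TTTGAA), the element bound by the complexes that time late cell cycle genes, with upstream CCAAT boxes. They were chosen after their values were seen. CCNB2, a mitotic cyclin, rose from 2.37 CPM ± 0.906 in WT to 18.7 ± 1.29 in OSK, and PLK1, a mitotic kinase, from 4.46 ± 0.753 to 30.1 ± 3.80 (SD, n = 3 each). Both motifs are in capitals, searched on both strands, at chr15:59104946-59105145 and chr16:23678689-23678888 (plus strand each). In both promoters the CHR lies 24 to 29 bases before the start.
CCNB2: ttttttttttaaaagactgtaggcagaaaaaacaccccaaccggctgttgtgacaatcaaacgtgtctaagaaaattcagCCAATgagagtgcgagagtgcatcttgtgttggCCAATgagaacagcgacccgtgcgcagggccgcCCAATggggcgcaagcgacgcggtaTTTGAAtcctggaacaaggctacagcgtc
PLK1: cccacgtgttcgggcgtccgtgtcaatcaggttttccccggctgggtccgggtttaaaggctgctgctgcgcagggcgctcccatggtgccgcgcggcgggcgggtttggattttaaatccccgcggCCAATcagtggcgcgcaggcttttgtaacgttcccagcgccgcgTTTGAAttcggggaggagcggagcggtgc
Of 46 mitosis genes with a window, 32 held a CHR (69.6%, against 9.66% of the tested genes) and 34 a CCAAT box (73.9% against 36.5%). An ERSE holds a CCAAT box, so those counts overlap. Among all genes that were shared and higher, 124 of 647 windows held a CHR (19.2%), and among genes specific to OSK and higher 155 of 1729 (8.96%).

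DNA replication and G1/S genes rose less. Of 53 tested, 44 were higher and 2 lower (median 1.16; 0.68 in GFP against WT, with 29 higher). E2F1, a transcription factor of S phase entry, rose by 2.93 and in GFP by 1.03. RRM2, a subunit of ribonucleotide reductase, and TK1, thymidine kinase, rose by 3.63 and 3.52. PCNA, the replication clamp, rose by 0.43, specific to OSK. CCNE1 fell (-0.75, adjusted p 0.0102), but the call was lost without OSK replicate 1 (-0.63) or WT replicate 1 (-0.42). An E2F motif (TTTCGCGC or TTTGGCGC, both strands) was found in 14 of 43 windows of this list (32.6%) and in 1.98% of the tested genes.

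Inhibitors of the cell cycle and D cyclins did not move as a group (6 of 15 higher, 6 lower). CDKN2B, which blocks CDK4 and CDK6, fell by 1.24 and CDKN1A, the p21 inhibitor, by 0.34, whereas CDKN2C rose from 1.53 to 2.86 CPM in WT to 20.8 to 26.9 CPM in OSK (3.64; 2.31 in GFP). CDKN2A was at 3.61 to 4.91 CPM in OSK and 3.45 to 3.78 CPM in WT, and was not called. CCND2, a D cyclin, stood at 1.49 to 2.94 CPM in WT and at 0.0712, 0.0633 and 0.211 CPM in OSK, each within the floor of 3 reads. Its fitted change was -4.31, and -5.00 without OSK replicate 3. The p53 targets were near the background, with 4 of 31 higher and 9 lower (median -0.11).

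**Figure D3:**
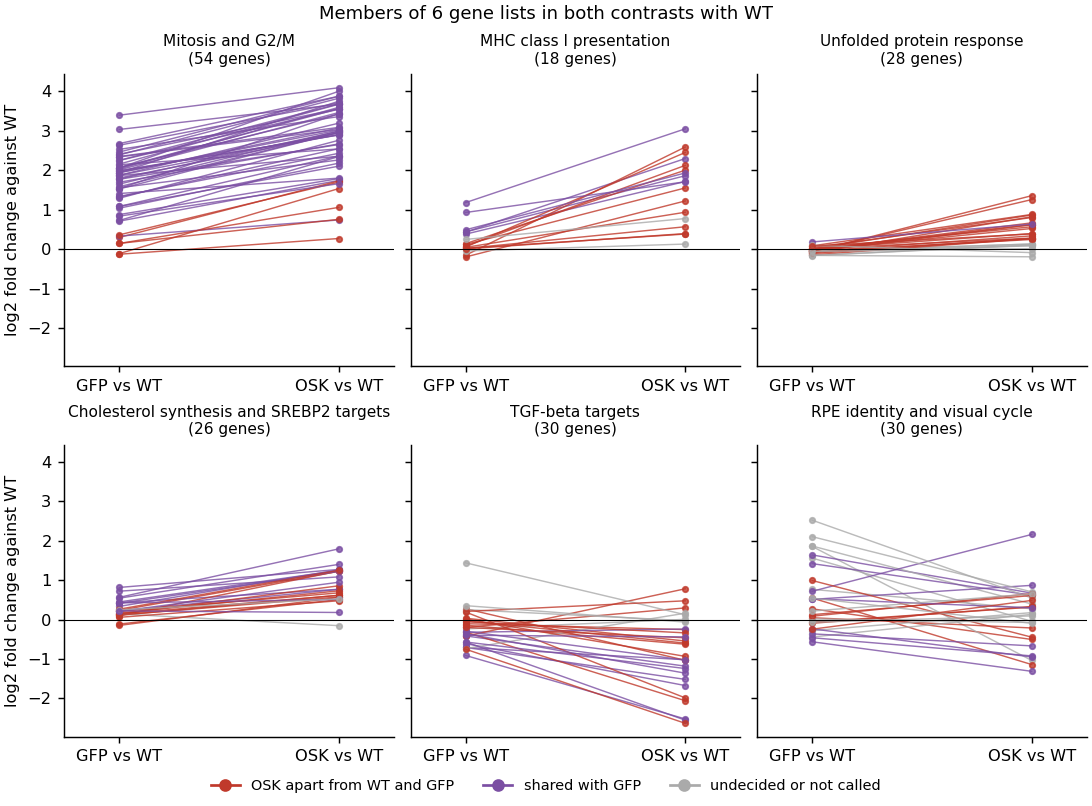
Log2 fold change of each tested member of 6 gene lists in GFP against WT (left end of each line) and OSK against WT (right end), both against the same 3 WT libraries. Lines are coloured by whether OSK differed from both WT and GFP, the change was shared with GFP, or the call was undecided or absent. Mitosis genes start near a median of 1.83 in GFP and reach 2.95 in OSK, whereas class I and unfolded protein response genes start near 0.

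The single genes with the largest rises specific to OSK came from many functions. They were named by a rule on size, absence of overlap and a mean of at least 5 CPM, under which 324 genes were eligible to rise and 201 to fall. NFATC2, a calcineurin-regulated transcription factor, stood at 196.5, 157 and 183 CPM in OSK, at 1.24, 0.514 and 0.944 CPM in WT and at 1.15 to 2.05 CPM in GFP (log2 7.59, SE 0.213, adjusted p 1.3e-16). CPA4, a carboxypeptidase, stood at 249, 394 and 445 CPM in OSK and at 3.48, 8.15 and 10.7 CPM in WT (5.60). GFP had 10.7 to 14.9 CPM of CPA4 (0.79, adjusted p 0.0584), a difference from WT that passed the threshold without WT replicate 3 (1.19, adjusted p 0.0122), without OSK replicate 1 or 3 (adjusted p 0.0259 and 0.0484), with no filter and with the replicate block. KCTD12, an auxiliary subunit of GABA-B receptors, rose by 4.74, GALNT15, an enzyme that starts O-linked glycans, by 5.08, and NGEF, a guanine nucleotide exchange factor, by 6.46. Several others came from near nothing: GPR1, a chemerin receptor, had 184, 189 and 251 reads in OSK and 0, 2 and 0 in WT, a ratio of 330 with a 95% counting interval of 91.0 to 2730. APLNR, the apelin receptor, had 80 to 124 reads in OSK and none in WT, so at least 35.2-fold more, and 8, 1 and 0 in GFP. The GFP rise of APLNR missed the threshold (adjusted p 0.0632) but passed with no filter (adjusted p 0.00631), with the replicate block (0.0477) and without GFP replicate 3 (0.0266), where it would count as shared. TP73, a relative of p53, stood at 12.9 to 15.8 CPM in OSK and at most 0.367 CPM in WT, and AZGP1 and DCLK1 at 7.83 to 13.1 and 6.48 to 7.09 CPM against at most 0.311 and 0.441. DCLK1 stood at 0.272 to 1.07 CPM in GFP, and its GFP rise (1.93, adjusted p 0.0617) passed with no filter (0.0149), with DESeq2 (0.0192), without WT replicate 2 (3.97, adjusted p 0.00617) and without GFP replicate 3 (2.30, adjusted p 0.0337). MS4A2 had 78 to 97 reads in OSK and 2, 1 and 0 in WT. In the GSTA4 line, outside the split, CPA4 averaged 31.3 CPM and DCLK1 2.59, against 7.46 and 0.168 in WT. GALNT15 went the other way there (0.182 against 0.879 CPM). These GSTA4 differences were not tested. Among other gene types, the long noncoding RNA LINC00707 rose from at most 0.220 CPM in WT to 21.7 to 29.7 CPM in OSK.

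Under the same rule, the largest falls specific to OSK were smaller in size than the rises. Genes under its minimum of 5 CPM could fall further, such as CCND2 (-4.31). The lowest change over all genes tested was -5.93. CCDC141 stood at 12.1, 15.8 and 18.8 CPM in WT, at 20.6 to 27.4 in GFP and at 1.49, 1.84 and 1.27 in OSK (-3.33, SE 0.203, adjusted p 2.46e-11). TRHDE, an ectopeptidase that cleaves thyrotropin-releasing hormone, fell by 3.02 and TRHDE-AS1, which runs antisense within it, by 2.75. No strand setting is given for the counts, so reads of this pair cannot be told apart. TTN, the giant muscle protein titin, fell by 2.76 and MYOCD, a coactivator of serum response factor, from 2.11, 6.10 and 7.55 CPM to 0.211 to 0.925 CPM. RAB17, a GTPase of polarised epithelial transport, fell by 2.75, TMC3 by 2.60, and TNFRSF11B, the decoy receptor osteoprotegerin, by 2.63. In the GSTA4 line, outside the split, RAB17 averaged 1.83 CPM, against 34.1 in WT and 5.05 in OSK. TRHDE averaged 8.78 CPM there and TMC3 108, against 29.2 and 213 in WT. CCDC141 went the other way (24.9 against 15.6 CPM), and TTN stayed nearer WT (82.2 against 87.4). These GSTA4 differences were not tested. FBLIM1, RIMS1 and FLRT3 fell by 2.36, 2.28 and 2.20. MIR100HG, the host transcript of a microRNA cluster, stood at 142 to 158 CPM in WT and 40.1 to 44.3 CPM in OSK (-1.86). A fall in GFP against WT passed the threshold under some alternatives, which would count the gene as shared. This held without GFP replicate 1 for TRHDE (-0.67), TNFRSF11B (-1.28) and MIR100HG (-0.25), and without WT replicate 1 for TRHDE (-0.50) and RIMS1 (-0.46). TRHDE and TNFRSF11B also passed with no filter and with the replicate block (adjusted p 0.046 and 0.0353 with the block).

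**Figure D4:**
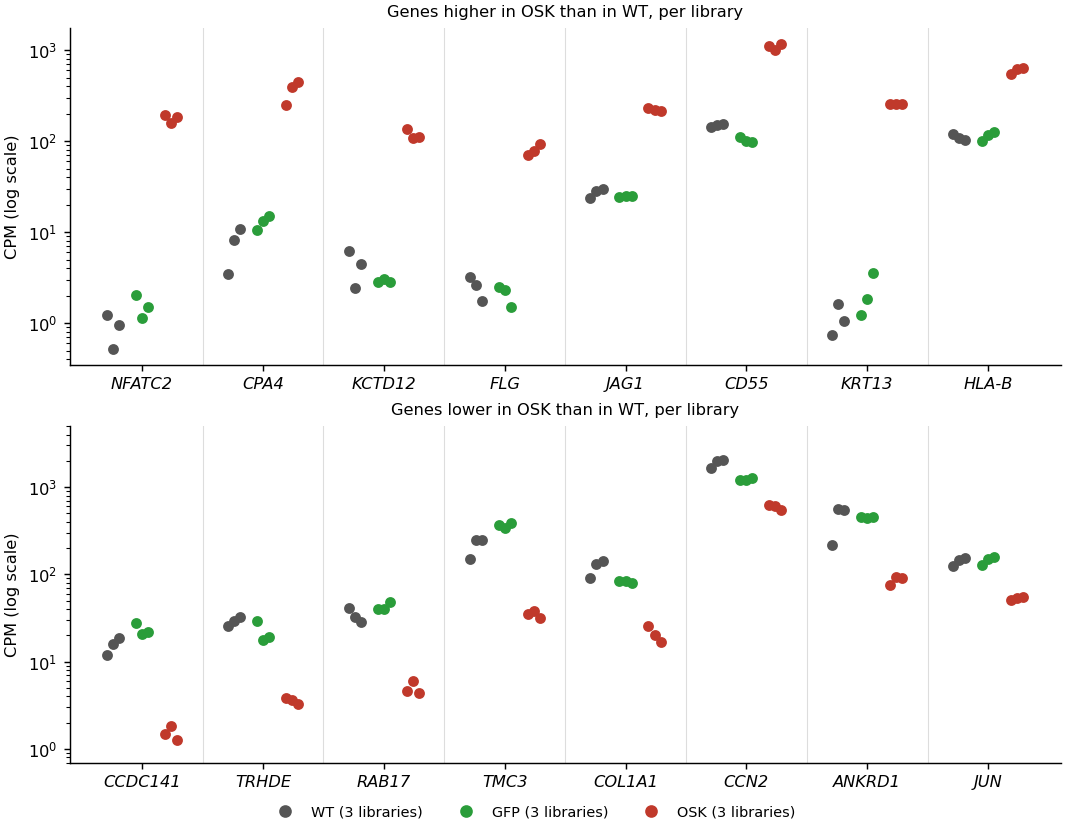
CPM on log axes, 1 point per library for WT, GFP and OSK. Above, NFATC2, CPA4, KCTD12, FLG, JAG1, CD55, KRT13 and HLA-B were higher in every OSK library than in any WT or GFP library. Below, CCDC141, TRHDE, RAB17, TMC3, COL1A1, CCN2, ANKRD1 and JUN were lower in every OSK library, and ANKRD1 in WT replicate 1 (218 CPM) lay under the other WT libraries (553 and 555 CPM).

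Among shared calls, where GFP moved the same way, the genes named here are those with the largest change in OSK against WT, so their size in OSK was part of the choice. HPD, an enzyme of tyrosine breakdown, stood at 64.8, 100.6 and 113 CPM in OSK, 3.30 to 5.51 in WT and 7.98 to 12.9 in GFP (4.48 in OSK and 1.34 in GFP against WT). ADGRG6, an adhesion receptor, rose by 4.80 and 0.96, the latter lost without GFP replicate 2 (0.84). LRRC4 rose by 6.01 and 2.45. NPR1, a natriuretic peptide receptor, had at most 0.311 CPM in WT and 4.70 to 7.32 in OSK. The GFP libraries held 3.19, 0.502 and 0.679 CPM of NPR1 (3.18 against WT, adjusted p 0.00552). That GFP call was lost without GFP replicate 1 (1.92, adjusted p 0.072), where NPR1 would not count as shared. RGS7BP, which anchors RGS proteins at the membrane, fell from 106 to 112 CPM in WT to 66.02 to 68.5 in GFP and 12.7 to 15.0 in OSK (-2.94 and -0.70), and its partner RGS9 fell by 3.35 and 0.80. PTX3, a soluble pattern receptor, fell by 2.75 and RRAD, a small GTPase, by 2.72. KIF26A fell by 3.41. NYAP1 was the largest shared fall under the rule (-4.07), with 21.1 CPM in WT replicate 1 against 8.37 and 7.37 in the other WT libraries, and -3.42 without that replicate.

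Most tested genes of simple epithelium fell, while the few tested genes of squamous epithelium moved in both directions. Of 24 tested genes of simple epithelium and junctions, 18 were lower and 3 higher (median -0.67; 0.03 in GFP against WT), with 13 falls specific to OSK. CDH1, E-cadherin, stood at 1.99, 2.72 and 5.07 CPM in WT, 11.5 to 20.2 in GFP and 0.213, 0.380 and 0.985 in OSK. It was lower in OSK by 2.63 (adjusted p 7.78e-05; -3.41 without OSK replicate 3) and higher in GFP by 2.28. The desmosomal genes JUP and DSC2 fell by 1.23 and 1.42, and DSP rose by 0.84. The squamous list had 10 of 37 genes tested, of which 5 were higher and 3 lower (median 0.40), and 27 had fewer than 10 reads in every OSK and WT library. Its summed level was 559 to 592 CPM in OSK and 327 to 333 in WT. PPL, periplakin, fell by 0.81 and DSC3, a desmosomal cadherin, by 0.56. KRT13, the keratin of moist squamous linings, stood at 255, 256 and 257 CPM in OSK, 0.747, 1.61 and 1.06 CPM in WT and 1.22 to 3.60 CPM in GFP (7.83, SE 0.198, adjusted p 2.42e-17). KRT13 was also called in GFP against WT (1.02, adjusted p 0.0464), so it counts as shared. That GFP call was lost with DESeq2 and without any 1 of the OSK libraries. It was also lost without WT replicate 1 or 3, or GFP replicate 2 or 3 (adjusted p 0.058 to 0.391 over these settings). FLG, the filaggrin of cornified skin, rose by 4.99 from 1.77 to 3.23 CPM, and CRNN had 62 to 74 reads in OSK and 0, 2 and 1 in WT (ratio 71.6, 95% counting interval 24.2 to 350). TP63, the master factor of stratified epithelia, had 0.0712 to 0.253 CPM in OSK and 0.436 to 0.826 in WT, each at or near the floor in OSK.

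Targets of TGF-beta fell in both lines, further in OSK. Of 30 tested, 22 were lower and 3 higher in OSK against WT (median -0.61), and 15 were lower and 2 higher in GFP against WT (median -0.27). CCN2, a matricellular growth factor, stood at 1644, 1986 and 2026 CPM in WT, 1215 to 1272 in GFP and 624, 605 and 543 in OSK (-1.68, SE 0.0799, adjusted p 5.23e-13). The 3 groups did not overlap, with GFP between WT and OSK. SMAD7, the feedback inhibitor of the pathway, fell by 1.18. BHLHE40 rose by 0.78 while it was lower in GFP by 0.42.

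Mesenchymal genes were mostly lower (12 of 21, 4 higher, median -0.43): CDH2, N-cadherin, fell by 1.20, ZEB2 by 0.73 and PDGFRB by 0.93, whereas ZEB1, a repressor of E-cadherin, rose by 1.43 and was specific to OSK. VIM was at 388.5 to 469 CPM in OSK and 341 to 500 in WT and was not called (-0.03), and without WT replicate 1 it was called lower (-0.18). Extracellular matrix genes split evenly, 15 of 37 higher and 15 lower. Laminin chains and a crosslinking enzyme were among the rises: LAMA4 changed by 2.11, LAMB2 from 1108 to 1194 CPM to 2646 to 2777 CPM (1.23), and LOX by 1.70, all specific to OSK. COL7A1, the anchoring fibril collagen, rose by 2.83. COL1A1 fell from 91.6, 133 and 143 CPM to 25.8, 20.1 and 16.8 CPM (-2.55), and FN1, fibronectin, by 0.57.

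RPE genes did not move in 1 direction, and 22.7% of all genes tested were called each way in OSK against WT. Of 30 tested, 10 were higher and 8 lower in OSK against WT (median 0.22), 15 higher and 4 lower in GFP against WT (median 0.24), and 9 higher and 18 lower in OSK against GFP (median -0.38). MITF, the master factor of pigment cells, stood at 187, 216 and 218 CPM in WT, 243 to 254 in GFP and 144, 141.5 and 152 in OSK, a fall of 0.51 in OSK (SE 0.0683, adjusted p 3.47e-06) and a rise of 0.27 in GFP. OTX2, its partner in RPE fate, fell by 0.21 and LHX2, an eye field factor, by 0.95. More of the RPE genes named here fell than rose, unlike the list as a whole, and not every rise is named. RDH5, the retinol dehydrogenase of the visual cycle, rose from 2.01 to 3.60 CPM to 12.2 to 15.1 CPM (2.16; 0.71 in GFP). The simple keratins KRT8 and KRT18 fell by 1.31 and 0.92. BEST1, a chloride channel of the RPE, and RLBP1, which carries retinal, were higher in GFP than in WT by 1.56 and 1.85 and were not called in OSK against WT (-0.05, adjusted p 0.891, and -1.04, adjusted p 0.0502). RLBP1 passed with 6 other settings and without OSK replicate 2 (-1.43) or WT replicate 1 (-1.22). RPE65, the visual cycle isomerase that defines mature RPE, had 3 to 10 reads in OSK and 1 to 6 in WT and was not tested. Of the pigment genes, chosen after their values were seen, PMEL, a melanosome fibril protein, stood at 175, 284.5 and 275 CPM in WT and at 108 to 114 CPM in OSK (-1.14), while GFP was higher by 0.55.

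Most genes of the pluripotency network had few reads in OSK and WT. Of 32 listed genes other than the factors, 7 were tested, of which 2 were higher and 3 lower in OSK against WT (median -0.81), and 24 of the 32 had fewer than 10 reads in every OSK and WT library. The list summed to 334 to 349 CPM in OSK, 369 to 417 in WT and 661 to 762 in GFP, and OTX2, which is also a regulator of RPE identity, and PODXL made up most of that in WT. NANOG had no read in OSK and 4, 3 and 0 in WT, and LIN28A had 2, 1 and 0 reads in OSK and 0, 1 and 1 in WT. CD24, a surface glycoprotein, was higher, at 62.5, 63.3 and 64.7 CPM in OSK against 4.85, 5.65 and 4.48 in WT and 3.74 to 4.56 in GFP (3.67, adjusted p 1.88e-15). DNMT3B, a de novo DNA methyltransferase, rose by 0.98 in OSK and 1.14 in GFP, which were not called apart, and the former was lost without OSK replicate 2 (0.86). PODXL fell by 0.81 in OSK and rose by 1.44 in GFP. Markers of other cells differed in level. The neural list summed to 358.5 to 372 CPM in OSK and 341 to 398 in WT, the endothelial list summed to 34.6 to 36.9 CPM in OSK and at least 76.2 in WT, the blood list to 5.82 to 8.37 and 0.295 to 1.31, and the fibroblast list to 358 to 408 and 791 to 808, most of it PDGFRB in WT (623 to 695 CPM). Single members of these lists rose from no WT reads: APLNR, given above, and the fibroblast marker PI16, at 2.28 to 7.46 CPM in OSK, at least 22.2-fold higher. Whether cells of these types had a part in any result was not tested. Of the defining markers, PECAM1 and CDH5 of endothelium had at most 1 read in any OSK library, and PTPRC of blood had none there.

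Lipid synthesis rose in OSK and to a lesser degree in GFP. Of 26 genes of cholesterol synthesis and SREBP2 targets, 25 were higher and none lower (median 0.76), against 12 higher in GFP (median 0.22), and OSK was above GFP in 22. MSMO1, an enzyme of the later steps of synthesis, stood at 164, 182 and 187 CPM in OSK, 70.7, 66.01 and 65.4 in WT and 95.5 to 103 in GFP (1.40, SE 0.0667, adjusted p 5.23e-13; 0.54 in GFP). The 3 groups did not overlap, with GFP between WT and OSK. Fatty acid synthesis had 14 of 19 higher and none lower, with FADS2, a desaturase, up by 1.20. SCD, which makes monounsaturated fatty acids, rose by 0.41 in OSK and 0.42 in GFP.

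Changes of mitochondrial genes were small and many were not called. Of 56 nuclear genes of oxidative phosphorylation, 25 were higher, none lower and 31 not called (median 0.19). Over all genes tested 22.7% were called higher. Of the 25 rises, 16 were specific to OSK. When libraries were scaled by their totals only, 14 of the 56 were higher, and 2876 of all 15179 genes tested. NDUFS1, of complex I, rose by 0.45 and COX4I1, of complex IV, by 0.33. Of 13 mitochondrially encoded mRNAs, 9 were higher (median 0.24), and mitochondrial transcripts held 6.81% to 6.89% of reads in OSK against 5.99% to 6.06% in WT and 6.05% to 6.54% in GFP. Cytosolic ribosomal protein genes were near 0 in OSK against WT (5 of 75 higher, 3 lower, median -0.01), while 27 were higher in GFP against WT (median 0.17). Hypoxia and glycolysis genes differed between the lines: 6 of 34 were higher and 12 lower in OSK against WT, 1 higher and 18 lower in GFP against WT, and 14 higher and 3 lower in OSK against GFP. LDHA, lactate dehydrogenase, stood at 927, 835 and 748 CPM in OSK, 632, 397 and 398 in WT and 251 to 259 in GFP (0.81 against WT, -0.91 in GFP). SLC2A1, the main glucose transporter, rose by 0.80 and was lower in GFP by 0.34. CA9, a carbonic anhydrase, rose by 1.94 and in GFP by 1.61.

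Antioxidant genes changed in both directions, beside 22.7% of all genes tested called each way. Of 29 targets of NRF2, the stress-response factor, 11 were higher and 7 lower (median 0.10), and the latter count was 4 without OSK replicate 2. GSR, which regenerates glutathione, stood at 147, 152 and 151 CPM in OSK against 58.9, 64.8 and 56.8 in WT and 58.7 to 70.99 in GFP (1.32, adjusted p 9.29e-12). NQO1 rose by 0.53, ABCC1, an exporter of glutathione conjugates, by 1.10 and SLC48A1, a haem transporter, by 1.27, while TXNRD1, thioredoxin reductase, fell by 0.98 and HMOX1 was not called. Among glutathione transferases and peroxidases 13 of 35 rose and 6 fell (median 0.09). GSTA4, which detoxifies lipid peroxidation products, stood at 17.4, 20.7 and 22.5 CPM in OSK, at 4.42, 4.85 and 7.14 in WT and at 7.83 to 9.44 in GFP. It rose by 1.87 in OSK (SE 0.135, adjusted p 3.27e-10) and by 0.68 in GFP. GLRX, a glutaredoxin, rose from 6.25 to 8.34 CPM to 46.4 to 58.1 CPM (2.92), and GSTO1 by 1.35, both specific to OSK. GPX3, the secreted peroxidase, fell from 1474 to 1491 CPM to 449 to 573 CPM (-1.57), and GPX4, which protects membranes, fell by 0.34.

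JAG1, a Notch ligand, stood at 235, 219 and 214.5 CPM in OSK, 23.8, 28.6 and 30.03 in WT and 24.3 to 25.02 in GFP (3.02, SE 0.0778, adjusted p 2.87e-17), and NOTCH1, a receptor, fell by 0.97. Of the Notch targets named by the rule, HES4 rose by 2.20, and HES1 and HEY1 were not called. The list as a whole had 5 of 17 higher and 3 lower, beside 22.7% called each way over all genes tested. WNT genes were mostly lower (16 of 26, 2 higher, median -0.46), with the antagonist SFRP1 down by 1.01 and the receptor FZD1 by 0.87. TCF7L2, the nuclear effector of the pathway, rose from 59.1 to 70.1 CPM to 258 to 265 CPM (1.99), specific to OSK.

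Immediate early genes were higher in 13 and lower in 5 of 27 (median 0.29; -0.14 in GFP against WT). FOS rose by 2.38, FOSL2 by 1.51, NR4A1 by 2.44 and NR4A3 by 3.65, and for the NR4A receptors GFP was below WT by 0.79 and 1.44. JUN, the partner of FOS, fell from 124, 148 and 152 CPM to 50.9, 53.7 and 55.4 CPM (-1.41), specific to OSK. YAP and TAZ targets split 12 against 12 of 28. F3, tissue factor, rose from 282 to 286 CPM to 1073 to 1088 CPM (1.92, adjusted p 1.59e-16) and MYOF, a membrane repair protein, by 2.98. ANKRD1 fell by 2.35 (adjusted p 1.23e-08). In GFP it was level with WT (0.04, adjusted p 0.92), and without WT replicate 1 it was lower (-0.29, adjusted p 0.00191). Lysosomal genes were higher in 22 and lower in 3 of 37 (median 0.25), with GAA, which breaks down glycogen, up by 1.04.

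**Figure D5:**
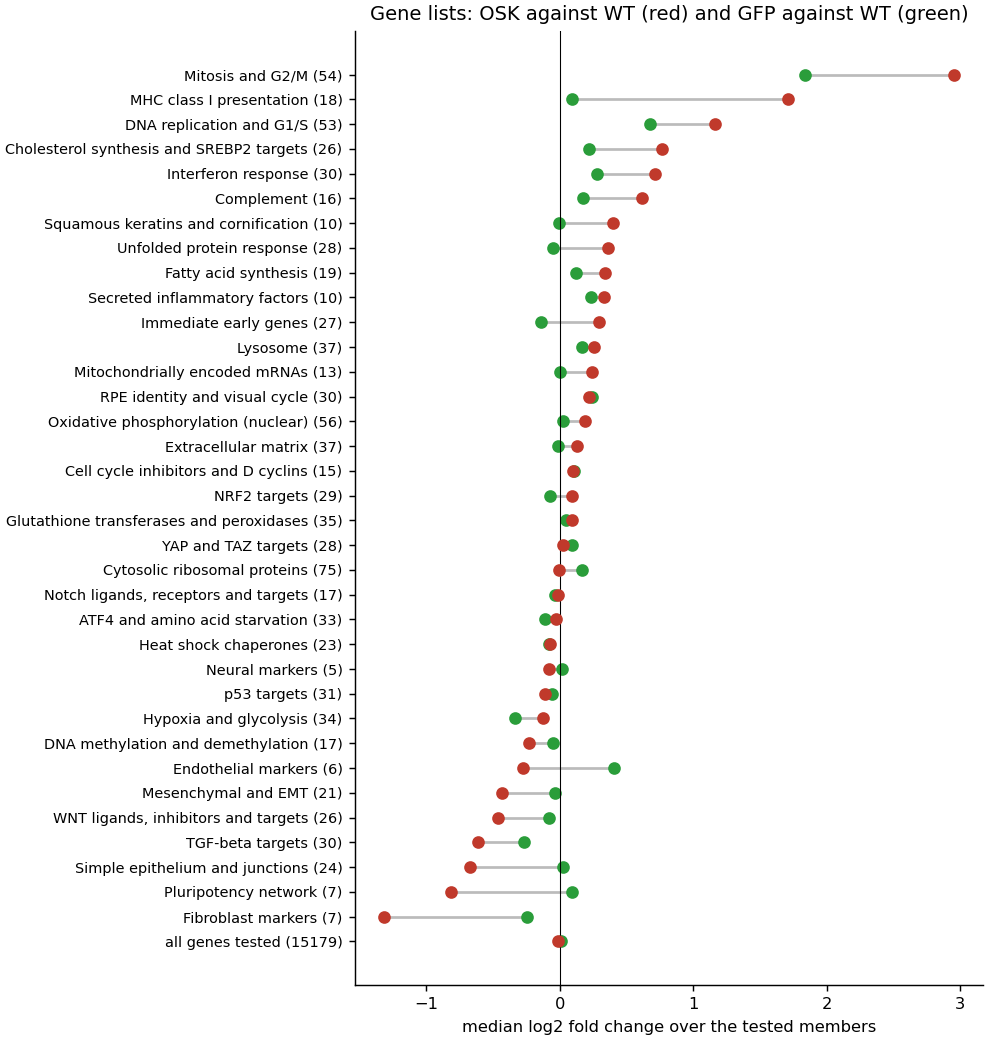
Median log2 fold change of each gene list with at least 5 tested genes (number tested in brackets) in OSK against WT (red) and GFP against WT (green), joined by a line, with all genes tested at the foot. Red and green lie far apart for class I presentation (1.71 and 0.10), and both lie right of 0 for mitosis (2.95 and 1.83).

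Motifs of the factors themselves were rare in promoter windows, both of all tested genes and of the changed genes. Some shares in the changed genes were above those of all tested genes and some below. An octamer (ATGCAAAT), a SOX motif (CATTGTT) and a KLF motif (CCACACCC), each on both strands, were found in 1.3%, 1.73% and 2.87% of the 11273 tested genes with a window. Among genes specific to OSK and higher with both changes of at least 1, the shares were 3.42%, 1.99% and 4.84% of 351 windows. Among those lower they were 0.946%, 4.1% and 2.52% of 317. These windows hold only the first bases around a start, and distal elements were not analysed here.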

How the data were processed

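RNA-seq counts of reads per gene were deposited by the authors as 1 table for all 12 libraries. The submitters' processing notes name STAR 2.7.1a and featureCounts 1.6.2; strand setting and filters are not given in the sources used here. The table has 60605 lines, of which 20014 without a gene name (0.485% to 0.822% of reads) were left out of library sizes and tests. Libraries were grouped by their labels. From the counts, edgeR 4.0.16 (R 4.3.3) computed TMM factors, a filter by group and quasi-likelihood tests over all 12 libraries, with Benjamini-Hochberg adjustment over the 15179 genes tested, a threshold of 0.05 and 8 residual degrees of freedom. On data simulated for OSK against WT (14881 genes), 47 of 68 genes changed by 0.5 on the log2 scale, 63 of 66 changed by 1 and 66 of 66 changed by 2 were recovered. The changed genes were few and drawn only from those above a low level. All groups shared the same baseline, and no library stood apart as WT replicate 1 does. Recovery of low genes in the real libraries was therefore not measured.

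Genes were named by a rule: the largest specific and shared changes without overlap and with a mean of at least 5 CPM, and in each list its first 4 members and those with the lowest adjusted p in each direction; others are marked as chosen after their values were seen. Members and lists were chosen with earlier results of these data known. Alternatives covered scaling (DESeq2 1.42.0 size factors, library totals), filters, DESeq2, a replicate block, fewer groups and leaving out each library. Counting intervals are at the 95% level. Promoter windows came from RefSeq (GRCh38.p14), with an entry for 11273 of the tested genes. A few genes picked by this rule are not reported here.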

Additional observations from a re-analysis of the deposited data

How the results depend on the processing

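With a log2 change of at least 1 also required, calls fell to 1853 (992 higher, 861 lower) in OSK against WT, 502 (387 and 115) in GFP against WT and 1767 (769 and 998) in OSK against GFP. The split then held 1049 specific (530 and 519), 281 shared (224 and 57) and 523 undecided calls (238 and 285). Leaving out 1 library at a time gave 6017 to 7052 calls in OSK against WT, 2267 to 3280 in GFP against WT and 6188 to 7569 in OSK against GFP, with 3638 to 4509 specific, 1161 to 1577 shared and 859 to 1564 undecided. Shared falls ranged from 560 to 792, undecided rises from 401 to 747 and undecided falls from 458 to 817. ANKRD1 in GFP against WT was 0.04 and turned to -0.294 without WT replicate 1 (0.229 without WT replicate 2). The causes were not tested. With the replicate number as a block, 4316 calls were specific to OSK, 4103 of them among the 4179. Same-numbered libraries correlated by -0.019 to 0.153 after removal of group means, and 5 of 12 libraries correlated best with their own number, so the numbers were not taken as pairing. Low counts left members of several lists untested, among them 25 of 32 pluripotency genes.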

Other observations

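Long noncoding RNAs were called higher in OSK against WT less often than all genes tested, and lower about as often. Of 1029 tested, 93 were higher and 243 lower (median log2 change -0.26), while of 13037 protein-coding genes 3276 were higher and 3115 lower. Over all genes tested 22.7% were higher and 22.7% lower. Of the noncoding calls, 52 rises and 166 falls were specific to OSK.

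Genes of DNA methylation and demethylation were higher in 4 and lower in 9 of 17 (median -0.23). GADD45B, a stress gene linked to demethylation, fell by 2.08 in OSK and 0.95 in GFP, and TET3, a 5-methylcytosine oxidase, by 0.77 in OSK. UHRF1, which guides maintenance methylation, rose by 2.72 in OSK and 2.12 in GFP. Heat shock chaperones were higher in 3 and lower in 6 of 23 (median -0.07), a smaller share called than the 45.4% over all genes tested, with CRYAB, a small chaperone, down by 0.74. Secreted inflammatory factors did not move in 1 direction. Of 10 tested, 2 were higher, 2 lower and 6 not called (median 0.34, range -1.56 to 2.87). These shares lie near the 22.7% called each way over all genes tested. The 2 falls were IL18 and CCL2, and IL18 fell by 1.17. CCL2 was lower by 1.56 with 45.4 CPM in WT replicate 1 against 11.5 and 17.8 in the other WT libraries, and by 0.79 without that replicate.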
